A study of Mus musculus with 13 samples.

Results

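Rod phototransduction genes encode the proteins that turn light into an electrical signal in the rod outer segment. The group examined here held 9 of the 35734 genes of the deposited gene table, chosen by name: Gnat1, Gngt1, Pde6a, Pde6b, Pde6g, Cnga1, Cngb1, Sag and Rcvrn. All 9 were matched to their transcripts and passed the filter on low counts, so all 9 were among the 15582 genes tested. Their levels were compared between retinal cells transfected to misexpress Ikzf1 and control cells. Ikaros, the product of Ikzf1, is a transcription factor that binds DNA through zinc fingers.

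The cells came from retinas of CD1 mice at postnatal day 0, were dissociated and transfected, and GFP-positive cells were sorted after 9 h in culture. The control group (4 libraries, 400000 cells each) carried the condition GFP, and the Ikzf1 group (4 libraries, 300000 cells each) the condition Ikzf1-IRES-GFP. No gene was deleted in either group, and the labels call the replicates biological without saying how many animals were pooled in each. Each library was RNA-seq after depletion of ribosomal RNA, with a depth of 21.4 to 27.1 M estimated read pairs (M, 1000000) for controls and 24.5 to 30.5 M for Ikzf1 libraries. Ikzf1 itself held 0.00723 to 0.0091% of the reads of a control and 15.8 to 17.2% of those of an Ikzf1 library, so every library matched its label. The 9 genes together took only 1208 to 1485 read pairs of a control library and 1046 to 1153 of an Ikzf1 library, so counting error weighs on the rarest of them.

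In a rod, the light-activated visual pigment activates transducin, whose alpha and gamma subunits are encoded by Gnat1 and Gngt1. The alpha subunit relieves the cGMP phosphodiesterase of its inhibitory gamma subunit (Pde6g) and frees its catalytic alpha and beta subunits (Pde6a and Pde6b). The fall in cGMP closes the channel built from Cnga1 and Cngb1, and arrestin (Sag) and recoverin (Rcvrn) shut the response off or tune it. In the newborn mouse retina, rods are being born and most of this machinery is at low levels, since outer segments form later. The homeodomain factor Crx and the leucine zipper factor Nrl are known activators of these genes.

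The sequences before the gene starts are shown first. Crx was itself lower with Ikzf1 (below), and whether that bears on these genes was not tested. RefSeq promoter windows on GRCm38.p6 were found for 5 of the 9 genes: Gngt1, Pde6b, Cnga1, Cngb1 and Sag. Only the 250 bases before the RefSeq start were read. The letters TAATCC, the usual Crx site, were searched on both strands. They were in 4 of the 5 windows, against 6.25% of the 32841 windows of the same length in the table. The 30 bases around each match follow, 5′ to 3′ on the strand of the gene, with the match in capitals (GGATTA is the same site on the other strand).
Gngt1 (chr6:3993952-3993981, plus strand): tcatattaggggGGATTAtgaagaagcttt
Cnga1 (chr5:72642963-72642992, minus strand): agtgtctcatttTAATCCtaatgataaact
Cngb1 (chr8:95306626-95306655, minus strand): ttctgcacatgcTAATCCtttgcacccggc
Cngb1 (chr8:95306593-95306622, minus strand): tctagtgccaatTAATCCtggctgggtctg
Sag (chr1:87803581-87803610, plus strand): taaagaggtttaGGATTAaaaaaaaaaaaa

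The match of Gngt1 began 44 bases before the start and that of Sag 87 bases before it. Those of Cngb1 began 58 and 25 bases before the start, and that of Cnga1 228 bases. The Gngt1 and Cnga1 sites lie inside the gene span of the deposited table, which begins upstream of the RefSeq start used for the window. Gngt1, the gene that rose (below), thus has the site as well. The whole windows of Sag, Cngb1 and Pde6b are given as examples. They stand for a gene that fell and has the site, a gene that was not called and has the site at 2 places, and a gene that fell without it.
Sag (chr1:87803430-87803679, plus strand): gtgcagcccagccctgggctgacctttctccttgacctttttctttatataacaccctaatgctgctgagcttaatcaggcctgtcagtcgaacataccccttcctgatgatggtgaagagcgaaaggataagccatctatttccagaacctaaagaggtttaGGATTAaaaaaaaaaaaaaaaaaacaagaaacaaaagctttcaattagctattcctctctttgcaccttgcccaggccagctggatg
Cngb1 (chr8:95306586-95306835, minus strand): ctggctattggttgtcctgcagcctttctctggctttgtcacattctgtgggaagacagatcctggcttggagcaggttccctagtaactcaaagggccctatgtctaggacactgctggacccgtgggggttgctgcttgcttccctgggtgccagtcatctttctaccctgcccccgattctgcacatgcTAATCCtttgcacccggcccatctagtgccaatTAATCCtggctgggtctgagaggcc
Pde6b (chr5:108388123-108388372, plus strand): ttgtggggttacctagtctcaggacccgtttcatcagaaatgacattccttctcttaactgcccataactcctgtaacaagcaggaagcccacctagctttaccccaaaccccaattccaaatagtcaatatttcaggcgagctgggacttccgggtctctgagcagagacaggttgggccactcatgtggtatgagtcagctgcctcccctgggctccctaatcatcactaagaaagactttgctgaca

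A further 2 motifs were searched in the same way. The letters TGCTGA, part of the usual Nrl site, were found in Pde6b and Sag and in 16.1% of all windows. The letters GGGAA, the core of the usual Ikaros site, were found in Cngb1 alone, at 3 places, while 56.2% of all windows held them. None of these searched letters overlapped another. A match is only a description of the letters in these windows.

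**Figure D1:**
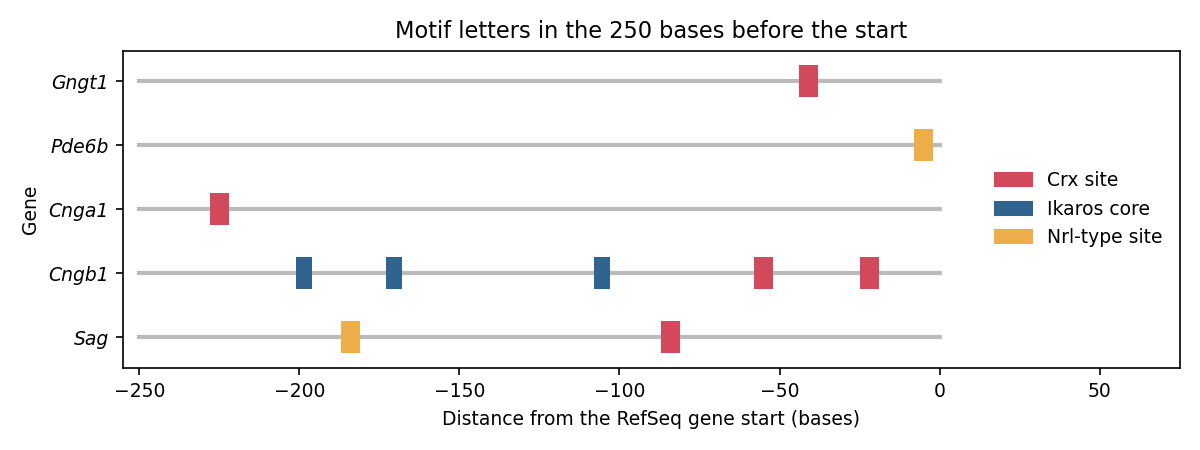
Map of the motif letters in the 250 bases before the RefSeq start of the 5 genes with a window, as distance from the start in bases (x axis). The Crx letters (red) were found in 4 of the 5 windows, the Ikaros core letters (blue) in Cngb1 alone and the Nrl-type letters (yellow) in Pde6b and Sag.

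The rod phototransduction genes did not move as a block. With Ikzf1, 5 of the 9 fell (Rcvrn, Pde6b, Cnga1, Pde6g and Sag), by 0.46 to 1.15 on the log2 scale, 1 rose (Gngt1, by 1.95), and Gnat1, Pde6a and Cngb1 did not pass the test. The test was the quasi-likelihood F test of edgeR, with p-values adjusted over all 15582 genes and a threshold of 0.05. By that rule 29.8% of all genes tested were lower and 29.3% higher, and 59.1% in either direction, so a change was common. The median log2 fold change was -0.51 over the 9 genes and 0.00 over all genes tested. All Ikzf1 libraries lay below all controls for the same 5 genes, against 26.6% of all genes, and above all controls for Gngt1, against 26.4% (53.1% in either direction). In bulk RNA, fewer rods and less of a transcript per rod cannot be told apart. Levels below are counts per 1000000 reads (CPM) on library sizes scaled by TMM, given for replicates 1 to 4 in order. A standard error (SE) is on the log2 scale.

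**Figure D2:**
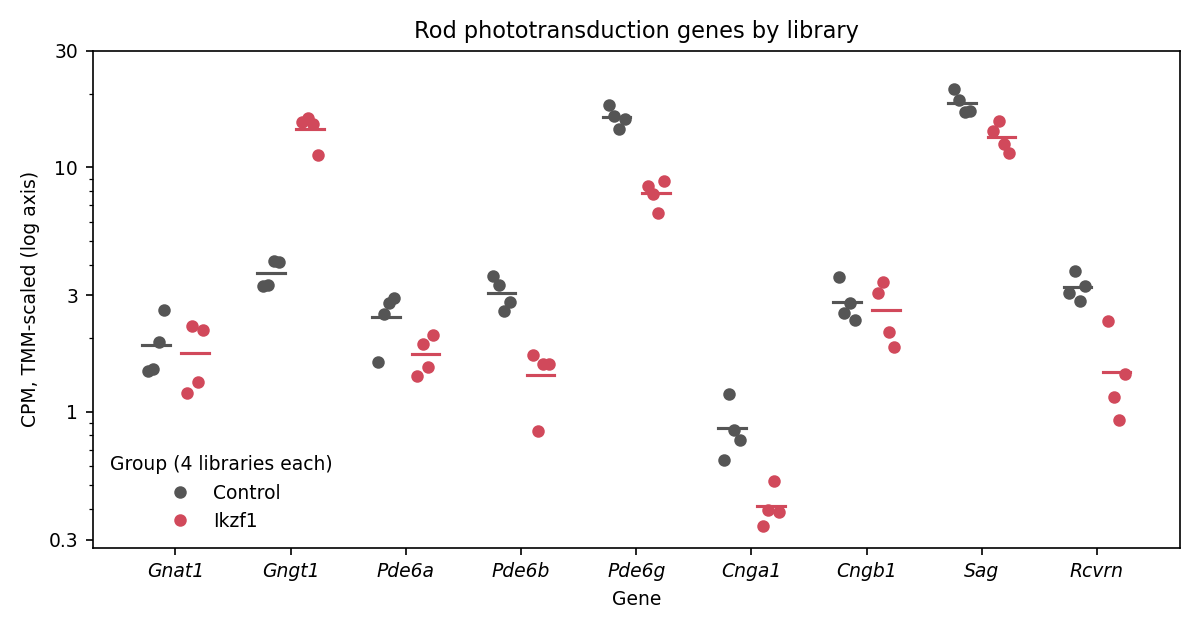
CPM of the 9 genes (y axis, log scale) in each of 4 control (grey) and 4 Ikzf1 (red) libraries, with bars at the group means. The groups are apart for Gngt1, Pde6b, Pde6g, Cnga1, Sag and Rcvrn and overlap for Gnat1, Pde6a and Cngb1.

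The transducin subunits differed most. Gngt1 (ENSMUSG00000029663, GRCm38 chromosome 6, 3993792 to 3997436, plus strand), the gamma subunit, stood at 3.27, 3.29, 4.13 and 4.11 CPM in the controls and at 15.3, 15.9, 15.0 and 11.3 CPM in the Ikzf1 libraries. Every Ikzf1 library was well above every control, and Ikzf1 replicate 4 was the lowest of its group. The rise was 3.85-fold, a log2 fold change of 1.95 with an SE of 0.13 (edgeR adjusted p 1.48e-13). It rested on 75 to 118 read pairs in a control and 317 to 374 in an Ikzf1 library. Gngt1 was the only one of the 9 genes to rise.

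Gnat1 (ENSMUSG00000034837, chromosome 9, 107674474 to 107679712, minus strand), the alpha subunit of rod transducin, was at 1.47, 1.49, 1.94 and 2.61 CPM in the controls. In the Ikzf1 libraries it was at 1.19, 2.25, 1.32 and 2.17 CPM. The groups overlapped, with control replicate 4 highest and Ikzf1 replicate 1 lowest. The log2 fold change was -0.12 with an SE of 0.26 (edgeR adjusted p 0.706), and its sign turned without control replicate 4 (0.08) and without Ikzf1 replicate 1 (0.03).

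The genes next to Gngt1 were looked up after its rise was seen. Gng11, another G protein gamma subunit gene, 6467 bases away on the same strand, went from 1.75 to 1.34 CPM and did not pass the test (log2 fold change -0.39, edgeR adjusted p 0.219). Tfpi2, 4872 bases away on the other strand, was listed in the authors' deposited table with a mean of 0.513 normalised counts and was not tested. Bet1, 79462 bases away, was higher by 0.32 on the log2 scale (edgeR adjusted p 0.00036). Neither of the tested neighbours had a change near the size of that of Gngt1.

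Of the phosphodiesterase genes, the beta and gamma subunits fell. Pde6g (ENSMUSG00000025386, chromosome 11, 120447605 to 120453500, minus strand), the inhibitory subunit, stood at 17.9, 16.1, 14.4 and 15.8 CPM in the controls. It was at 8.39, 7.76, 6.50 and 8.77 CPM in the Ikzf1 libraries. All Ikzf1 libraries were well under all controls, at about the same distance. The level fell by 1.03 on the log2 scale, with an SE of 0.10 (edgeR adjusted p 9.02e-10), the smallest p of the 5 falls.

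Pde6b (ENSMUSG00000029491, chromosome 5, 108388391 to 108432397, plus strand), a catalytic subunit, was at 3.58, 3.29, 2.59 and 2.82 CPM in the controls and at 1.70, 0.837, 1.56 and 1.56 CPM in the Ikzf1 libraries. The groups did not overlap, and Ikzf1 replicate 2 was far below its group. The fall was 1.11 on the log2 scale, a log2 fold change of -1.11 with an SE of 0.22 (edgeR adjusted p 0.000108). Without that library the fall was 0.92 and the gene was still called.

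Pde6a (ENSMUSG00000024575, chromosome 18, 61220315 to 61289924, plus strand), the other catalytic subunit, was at 1.59, 2.50, 2.77 and 2.93 CPM in the controls and at 1.41, 1.90, 1.52 and 2.06 CPM in the Ikzf1 libraries. The groups overlapped through control replicate 1, which was the lowest control. The log2 fold change was -0.51 with an SE of 0.23 and just missed the threshold (edgeR adjusted p 0.0562). Without control replicate 1 it was -0.67 (adjusted p 0.0113) and without Ikzf1 replicate 4 it was -0.60 (adjusted p 0.0436), past the threshold in both cases. It was smaller with the length offset (-0.40, adjusted p 0.192) and under limma on log2(TPM + 0.1) and log2(TPM + 1) (-0.29 and -0.16, adjusted p 0.344 and 0.297). The pseudogene Rps2-ps10 overlaps Pde6a on the other strand and was itself lower by 0.21 on the log2 scale, and strand use in counting was not given, so part of these reads is uncertain.

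Of the channel genes, Cnga1 was the rarest of all the members, while Cngb1 was above Gnat1 and Pde6a in mean CPM in both groups. Cnga1 (ENSMUSG00000067220, chromosome 5, 72603696 to 72644275, minus strand), the alpha subunit, had 16, 27, 23 and 22 read pairs in the controls and 8, 9, 13 and 11 in the Ikzf1 libraries. In CPM this was 0.637, 1.19, 0.840 and 0.767 against 0.341, 0.397, 0.521 and 0.391. The groups did not overlap, and control replicate 2 was the highest. The log2 fold change was -1.04 with an SE of 0.36 (edgeR adjusted p 0.0149). The call rests on control replicate 2, since without it the value was -0.85 (adjusted p 0.0779), and in the authors' deposited table Cnga1 was not called (-0.70, adjusted p 0.0750). The pseudogene Gm5297 overlaps Cnga1 on the same strand and had a mean of 0.240 normalised counts in the authors' deposited table.

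Cngb1 (ENSMUSG00000031789, chromosome 8, 95239045 to 95306585, minus strand), the beta subunit, was at 3.54, 2.54, 2.78 and 2.37 CPM in the controls and at 3.07, 3.39, 2.12 and 1.85 CPM in the Ikzf1 libraries. The groups overlapped over most of their range. The log2 fold change was -0.11 with an SE of 0.21 (edgeR adjusted p 0.661). Its size depended on the transcripts behind it: with an offset for transcript length it was -0.60 (adjusted p 0.0950), still outside the threshold. Its sign turned without control replicate 1 (0.02) and without Ikzf1 replicate 4 (0.03).

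Sag and Rcvrn both fell. Sag (ENSMUSG00000056055, chromosome 1, 87803680 to 87845158, plus strand), arrestin, stood at 20.9, 18.8, 16.8 and 17.04 CPM in the controls and at 14.02, 15.4, 12.5 and 11.5 CPM in the Ikzf1 libraries. The groups lay close together without overlap. The log2 fold change was -0.46 with an SE of 0.09 (edgeR adjusted p 0.000111), the smallest fall of the 5 that were called.

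Rcvrn (ENSMUSG00000020907, chromosome 11, 67695326 to 67703333, plus strand), the calcium sensor recoverin, was at 3.07, 3.77, 2.85 and 3.28 CPM in the controls and at 2.34, 1.15, 0.922 and 1.42 CPM in the Ikzf1 libraries. Ikzf1 replicate 1 was the highest of its group and still below all controls. The log2 fold change was -1.15 with an SE of 0.23 (edgeR adjusted p 0.000122). Without Ikzf1 replicate 1 it was -1.46. Glp2r overlaps Rcvrn on the other strand and had a mean of 0.230 normalised counts in the authors' deposited table.

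The authors' deposited table, made with DESeq2, gave the same direction for all 9 genes. Its log2 fold changes were 1.88 for Gngt1, -1.07 for Pde6g, -0.99 for Rcvrn, -0.95 for Pde6b and -0.37 for Sag, all called in the authors' deposited table. It gave -0.51 for Cngb1, -0.35 for Pde6a and -0.05 for Gnat1, none called there (adjusted p 0.110, 0.266 and 0.911). It rests on the same reads.

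Levels between genes were compared per transcript length, as TPM, a length-corrected share of the transcripts, rescaled without Ikzf1, since Ikzf1 took so large a share of the Ikzf1 libraries. In the controls Pde6g was highest, at 39.8 ± 3.86 TPM, followed by Sag at 22.3 ± 2.33 TPM (SD, n = 4 each), and their ranges did not meet. Gnat1 (7.42 ± 2.17), Rcvrn (6.94 ± 0.857) and Gngt1 (6.76 ± 0.862 TPM) could not be ordered, since their ranges overlapped. Cngb1 (3.01 ± 0.971 TPM) and Pde6b (2.10 ± 0.265 TPM) overlapped in turn, as did Pde6a (1.05 ± 0.262 TPM) and Cnga1 (0.643 ± 0.156 TPM).

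With Ikzf1 the order changed at its top. Gngt1, below Pde6g and Sag in the controls, was highest, at 27.4 ± 3.83 TPM (SD, n = 4), and its range did not meet that of Pde6g (19.3 ± 2.35 TPM). Pde6g and Sag (17.8 ± 2.20 TPM) overlapped, unlike in the controls. Below them by mean came Gnat1 (7.44 ± 2.60), Rcvrn (3.25 ± 1.35) and Cngb1 (2.07 ± 0.667 TPM), each overlapping the next. Pde6b (1.03 ± 0.283) and Pde6a (0.831 ± 0.148 TPM) overlapped as well, and Cnga1 (0.343 ± 0.0734 TPM) lay below both without overlap.

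**Figure D3:**
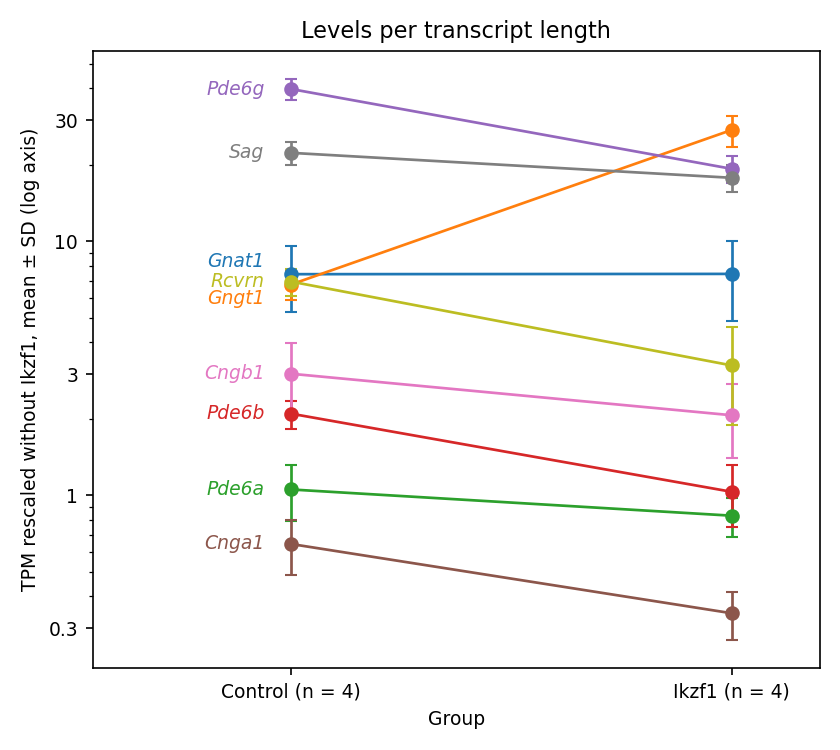
TPM rescaled without Ikzf1 (y axis, log scale) of the 9 genes in the control and Ikzf1 groups, as mean ± SD of 4 libraries. Gngt1 moved to the top of the order, from 6.76 to 27.4 TPM, while Gnat1 stayed at 7.42 and 7.44 TPM.

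Ratios between partners, meaning subunits of the same complex, were taken within each library on the same TPM scale. Gngt1 over Gnat1 was 0.943 ± 0.158 in the controls, between 0.707 and 1.04, and 4.198 ± 2.00 in the Ikzf1 libraries, between 2.23 and 6.90 (SD, n = 4 each). Pde6g over Pde6b was 19.1 ± 1.304 in controls and 20.4 ± 8.59 with Ikzf1, where it ran from 13.8 to 33.0. Pde6a over Pde6b was 0.518 ± 0.175 and 0.878 ± 0.367, and Cngb1 over Cnga1 was 4.98 ± 2.34 and 6.46 ± 2.99. Only for Gngt1 over Gnat1 did the ranges of the groups not meet. No test was made on these ratios.

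The transcripts behind the counts differed between the genes. Of the Gngt1 reads, a transcript of 1183 bases (ENSMUST00000031673.6) held 98.5% in controls and 99.3% with Ikzf1, so the rise was that of 1 transcript. Rcvrn had reads on a single transcript of 1040 bases. The main Pde6g transcript, of 900 bases (ENSMUST00000026452.2), held 84.3% and 86.7% of the reads of that gene. A Pde6g transcript of 731 bases (ENSMUST00000141795.1) went from 21.9 to 50.8 read pairs in the controls to none in 3 of the 4 Ikzf1 libraries and 8.39 in the other.

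The reads of other members were split between transcripts. The longest Gnat1 transcript with reads, of 2328 bases (ENSMUST00000010205.8), held 2.48, 9.00, 17.1 and 20 read pairs in the controls and 11.0, 10.4, 3.00 and 12 in the Ikzf1 libraries. That was 24.5% and 21.1% of the Gnat1 reads. A transcript of 525 bases (ENSMUST00000194153.1) held 67.7% in controls and 73.9% with Ikzf1. The TPM of Gnat1, and its ratio to Gngt1, therefore rest mostly on this short transcript. Cngb1 reads were spread over 9 transcripts, of which that of 6189 bases (ENSMUST00000119870.8) held 43.2% in controls and 66.6% with Ikzf1. Sag reads lay on a transcript of 1719 bases (58.9% in controls, 61.9% with Ikzf1) and on one of 1886 bases (28.9% and 23.5%). Most Cnga1 reads of each library went to 1 transcript, that of 2739 bases in 3 controls and 1 Ikzf1 library and that of 2510 bases in the others. Shares between transcripts of 1 gene are estimates and were not tested.

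**Figure D4:**
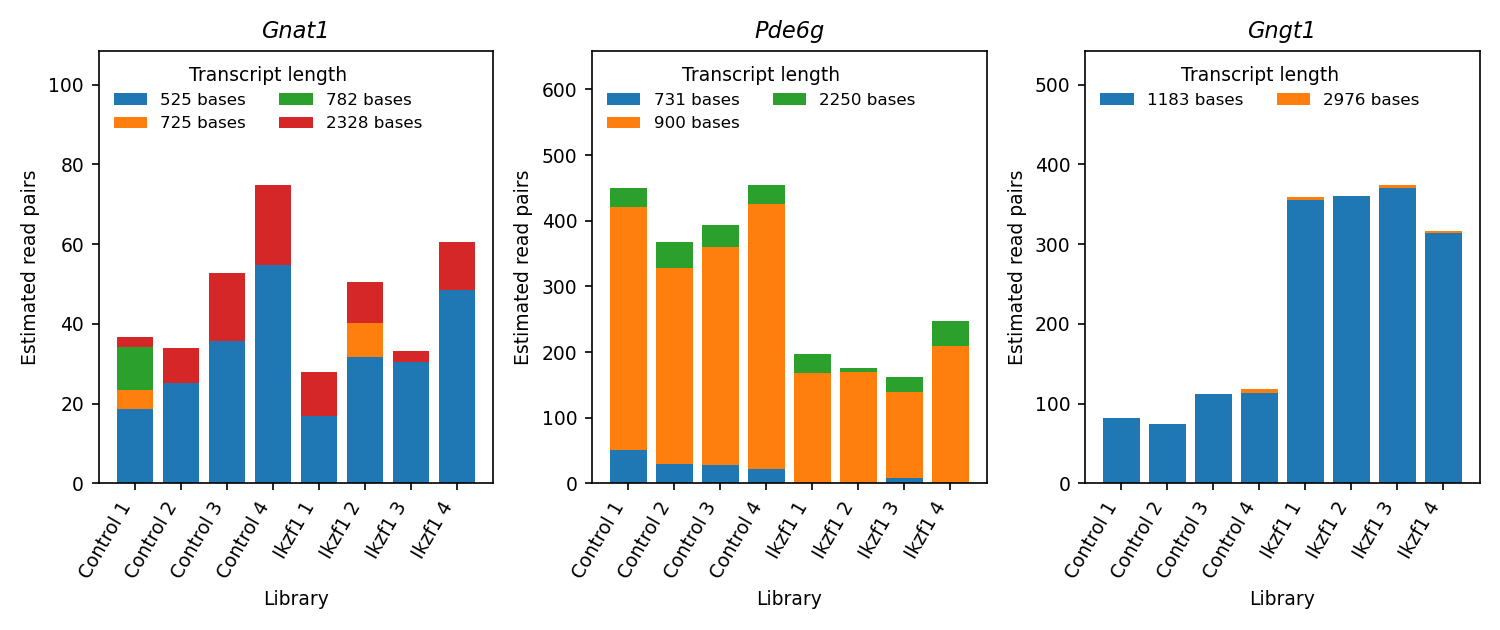
Estimated read pairs (y axis) per transcript of Gnat1, Pde6g and Gngt1 in each of the 8 libraries, stacked and coloured by transcript length. Gngt1 came from the 1183-base transcript in all libraries, while most Gnat1 reads fell on the 525-base transcript and few on that of 2328 bases.

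The other genes of the phototransduction cascade were taken from a list of 16, of which 15 were tested. Of these, 9 fell, 2 rose and 4 did not pass, with a median log2 fold change of -0.20. The largest falls were those of Prcd, a protein of the disc membrane, at -1.46 (from 2.56 to 0.924 CPM), and Aipl1, the chaperone of the phosphodiesterase, at -1.30 (from 5.81 to 2.37 CPM). Rgs9, which speeds the hydrolysis of GTP by transducin, fell by 0.86 on the log2 scale. Pdc (phosducin), which binds the beta and gamma subunits of transducin, fell by 0.76. Smaller falls were those of Gnb5, the partner of Rgs9 (-0.38), Unc119, which binds the lipid tail of transducin alpha (-0.33), Pde6d, a carrier of prenylated proteins (-0.18), and Gnb1, the transducin beta subunit (-0.17). The largest edgeR adjusted p among these 8 was 0.0349, for Pde6d, which lost its call under 8 of 17 alternatives. The count of falls was 6 at its lowest, with Gnb1 also lost under limma on TPM.

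The genes of that list that rose were Rgs9bp and Grk1. Rgs9bp, the membrane anchor of Rgs9, went from 4.27 to 7.24 CPM, a rise of 0.76 in log2 (edgeR adjusted p 1.85e-05), while Rgs9 itself fell. Grk1, the kinase of the visual pigment, rose by 0.52, from 6.53 to 9.34 CPM (edgeR adjusted p 0.00381), and lost its call under limma on TPM with a pseudocount of 0.1. The guanylate cyclase genes Gucy2e (-0.20) and Gucy2f (0.37) and their activators Guca1a (0.34) and Guca1b (-0.07) did not pass, with edgeR adjusted p of 0.148 to 0.869. The genes of the transducin subunits thus took 3 courses: Gnat1 was not called, Gnb1 was slightly lower and Gngt1 was 3.85-fold higher. Gnb1 stood at 587.9 CPM in controls and 521.1 CPM with Ikzf1, far above Gnat1 and Gngt1. How much of the Gnb1 signal came from rods was not tested. Slc24a1, the rod cation exchanger, was below the filter, at 0.340 and 0.113 CPM.

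**Figure D5:**
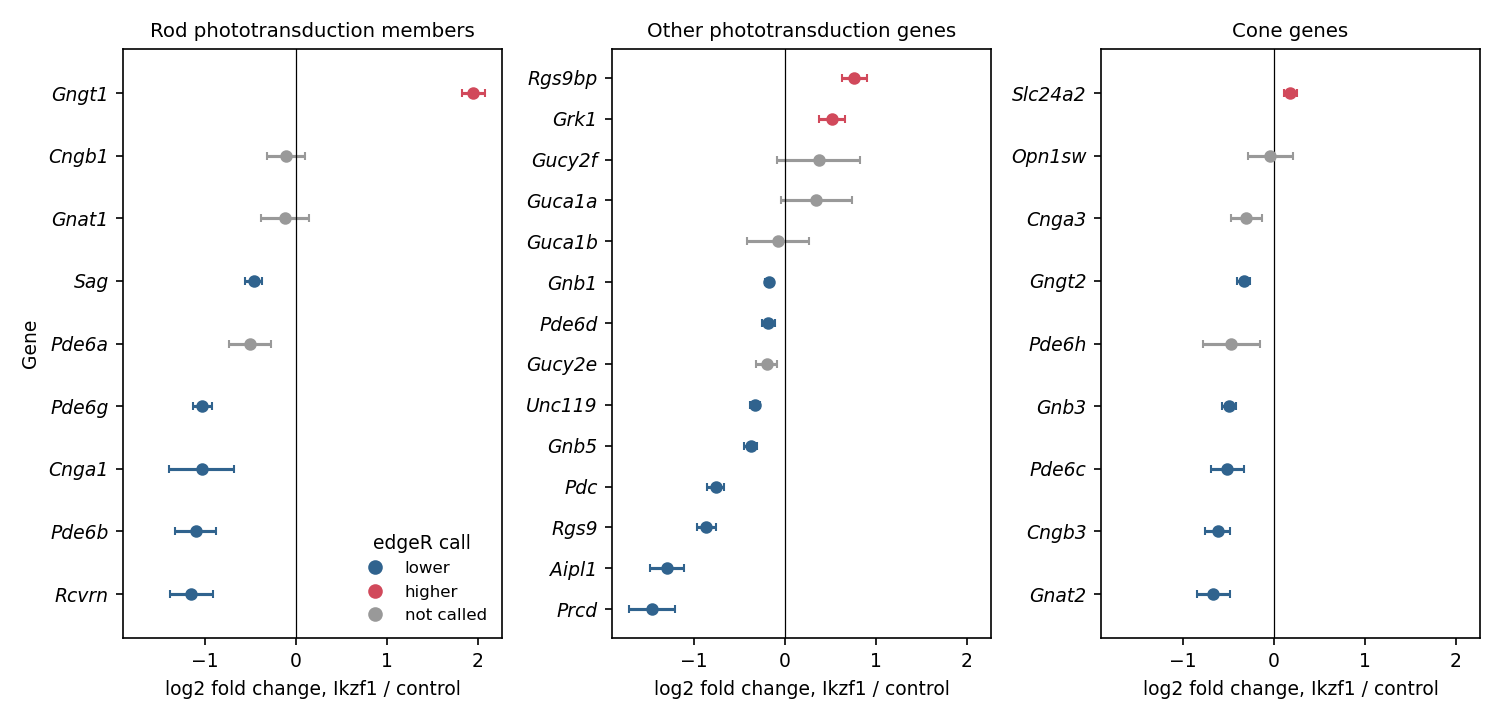
log2 fold change of Ikzf1 over control (x axis), with standard errors as bars, for the 9 genes, 14 other phototransduction genes and 9 cone genes, coloured by the edgeR call (blue lower, red higher, grey not called). Gngt1 lies at 1.95, beyond every other gene shown, and most of the others lie below 0.

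Cones use a paralogous set of proteins, and their genes gave a comparison within the same libraries. Of 11 cone genes, 9 were tested, of which 5 fell, 1 rose and 3 did not pass (median log2 fold change -0.47). Gngt2, the cone paralog of Gngt1, was lower, at 30.1 against 37.9 CPM (log2 fold change -0.34, edgeR adjusted p 0.000521). Gnat2, the cone transducin alpha subunit, fell by 0.67, Cngb3 by 0.62, Pde6c by 0.51 and Gnb3 by 0.50. Pde6c lost its call under 4 of 17 alternatives. Cnga3 (-0.30), Pde6h (-0.47) and the blue opsin gene Opn1sw (-0.04) did not pass. Cnga3 gained a call under 4 of 17 alternatives, those with transcript lengths, and was called in the authors' deposited table (-0.57, adjusted p 0.0141). Slc24a2, the cone cation exchanger, rose by 0.18 (edgeR adjusted p 0.0348), a call that was lost under 5 of 17 alternatives. How much of the Slc24a2 signal came from cones was not tested. Arr3 and Opn1mw had means of 1.90 and 0.255 normalised counts in the authors' deposited table and were not tested.

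Each rod gene was also set against its cone paralog by the log2 ratio of their TPM in each library (pseudocount 0.1), and the groups were compared by a two-sided exact permutation test. With 4 against 4 libraries the smallest possible p is 0.0286. Of the 7 pairs, the ratio of Gngt1 to Gngt2 moved most, by 2.26 on the log2 scale (exact p 0.0286, 0.200 adjusted over the 7 pairs). Pde6g to Pde6h moved by -0.73 (exact p 0.0571) and Pde6b to Pde6c by -0.55 (exact p 0.143). For Gnat1 to Gnat2 the difference was 0.80, for Pde6a to Pde6c 0.15, for Cnga1 to Cnga3 -0.18 and for Cngb1 to Cngb3 0.00, with exact p of 0.171 or more. A single pair at the smallest possible p reaches only 0.200 after adjustment over 7 pairs, so this test could not call 1 pair alone, and its failure to do so says nothing of whether paralogs differed. The log2 ratio of Gngt1 to Gngt2 was -4.65 ± 0.25 in controls and -2.39 ± 0.28 with Ikzf1 (SD, n = 4 each).

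The structural and retinoid genes of the outer segment mostly fell. Of 20 genes, all tested, 14 fell, 1 rose and 5 did not pass, with a median log2 fold change of -0.53. The 4 of smallest p were Prph2 (peripherin), lower by 1.08 on the log2 scale, its partner Rom1, lower by 0.90, Prom1 (prominin), lower by 0.65, and Tulp1, needed for transport to the outer segment, lower by 0.82. The largest edgeR adjusted p of these 4 was 1.91e-07. Nxnl1 was the single gene of this list that rose, by 0.79 from 0.965 CPM, and it was not called without control replicate 4. The share of falls in the members (5 of 9) and in this list (14 of 20) was not compared by a test.

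Of 12 transcription factors of photoreceptors, 9 fell, none rose and 3 did not pass (median -0.43), and the 9 calls held under all 17 alternatives. The 4 of smallest p were Casz1 (-0.87), Crx (-1.05), Prdm1 (-1.23) and Nrl (-0.94). Crx went from 267.6 to 128.9 CPM and Nrl from 21.4 to 11.2 CPM. Whether the fall of any gene follows from that of another was not tested.

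The 5 genes whose pattern was most like that of the members were Gm21818, Rbm22, Ecm1, Entpd1 and Ccdc112. The measure was Pearson r over the 8 libraries between log2 CPM and the mean of the scaled members. The r values lay between 0.992 and 0.996, and each of the 5 genes was lower with Ikzf1, from -0.19 for Rbm22 to -1.75 for Entpd1 on the log2 scale. The 8 libraries form 2 groups, so r mainly follows the difference between them. Within groups, the deviations of 28 pairs of the members other than Gngt1 had r from -0.66 to 0.91 with a median of -0.19. With 4 libraries in a group and low counts for several genes, these values cannot show whether the genes shared a spread among replicates.

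The labels call the cells retinal progenitors, and the marker genes showed a mixture. Markers of progenitors summed to 1924 to 2046 CPM in the controls and 1808 to 1884 CPM in the Ikzf1 libraries, with 5 of 11 lower and 3 higher. The photoreceptor factors summed to 2132 to 2372 CPM and 1492 to 1691 CPM. Ganglion cell markers summed to 147.4 to 151.7 and 95.95 to 103 CPM, with 4 of 6 higher and 2 lower. The fall of that sum came mostly from Nefl, at 118.0 and 18.9 CPM, and Thy1 fell from 4.37 to 2.58 CPM. Sncg rose from 2.67 to 21.5, Pou4f1 from 4.44 to 18.4, Rbpms from 9.39 to 23.7 and Isl1 from 9.59 to 12.6 CPM. Amacrine and horizontal cell markers summed to 420 to 481.2 and 396.4 to 426.2 CPM, with 4 of 8 lower. Bipolar cell markers summed to 22.33 to 25.85 and 35.16 to 36.42 CPM, with 2 of 4 higher and 1 lower. The rise of that sum came from Prkca, at 20.6 and 32.1 CPM. Of the others, Grik1 rose from 0.587 to 1.27, Cabp5 fell from 2.95 to 1.75 and Trpm1 was at 0.598 and 0.590 CPM. Müller glia markers summed to 593.8 to 645.8 and 588.2 to 638.1 CPM, with 1 of 5 higher and 2 lower. Microglial markers summed to at most 2.51 CPM, with 0 of 1 called, and those of the pigment epithelium to at most 3.72 CPM, with 0 of 2 called. Endothelial markers summed to 403.2 to 474.0 CPM and 207.1 to 246.9 CPM, nearly all from Kdr (438.8 and 216.6 CPM), while Pecam1 was at 3.06 and 2.92 CPM and Cdh5 had a mean of 1.78 normalised counts in the authors' deposited table. Astrocyte markers summed to at most 3.69 CPM, with Pax2 lower. Blood and lens markers had means of at most 4.33 normalised counts in the authors' deposited table, with Alas2 and Crygs listed at 0. The part of these shifts in the change of the rod genes was not tested.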

How the data were processed

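For each library the authors deposited, per transcript, an estimated count of fragments and a TPM value from salmon, a tool named in the submitters' processing notes. One deposited gene table held, for every gene, the average signal across libraries (normalised counts). It also held, per the file headers, log2 fold changes, their errors, the score of a Wald test, and raw and adjusted p-values, with DESeq2 named in the submitters' processing notes. Versions, index, annotation release and strand setting are not given in the sources used here. Gene coordinates of the deposited table were read as GRCm38: for 96.3% of 15261 protein-coding genes the start or end lay within 1000 bases of that of RefSeq on GRCm38.p6. The CUT&RUN peak lists were not used here.

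The transcript files name no genes. Transcripts were joined to genes by finding the run of up to 60 neighbouring transcripts whose counts, after correction for library and length, gave the mean of the gene in the authors' deposited table within a relative tolerance of 5e-09. The join succeeded for 16733 of 16815 genes whose mean was 5 or more (99.5%), while 68 matched several runs and were not used. With shifted means, 0.416% of genes matched by accident. On simulated data, 99.6% of 22713 genes were joined, 100% of them correctly. Between 99.1 and 99.2% of each library's reads lay in joined genes.

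Estimated counts were summed per gene and rounded, filtered with filterByExpr, scaled by TMM and tested with edgeR 4.0.16 (quasi-likelihood F test, robust, two-sided, no covariate, Benjamini-Hochberg over 15582 genes). The SE is the absolute log2 fold change over the square root of F. DESeq2 1.42.0 and limma 3.58.1 on log2(TPM + pseudocount) were alternatives. On simulated counts (15552 genes tested, 186 of them changed), edgeR recovered 99.5%, and 6.57% of its 198 calls were false. The simulation left Ikzf1 out, used the same dispersion for all genes and gave each changed gene a larger change than that of Sag or Pde6a. In the real data 59.1% of genes were called, so these rates do not carry over to this comparison or to small changes. All replicates were kept. The p-values set the difference between the groups against the spread between these libraries, with the dispersion in part shared over genes.

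The members, lists, tests and alternatives were chosen with earlier results of these data known. The test of rod against cone paralogs, the partner ratios, the neighbours of Gngt1 and the motifs were added after the values were seen. Named were all members, all other phototransduction genes, the cone genes and, of the other lists, the 4 genes of smallest p (Nxnl1 and the marker genes given by name were chosen after their values were seen). A gene of the phototransduction list is counted but not reported here by value.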

Additional observations from a re-analysis of the deposited data

Results flagged for a closer look

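In 1 of 18 groups of 4 libraries (9 genes, 2 groups each), 1 library lay far from the other 3. Pde6b stood at 0.837 CPM in Ikzf1 replicate 2, against 1.56 to 1.70 CPM in the other Ikzf1 libraries. The gap was 0.837 of the range of the group, just past the 95% limit of the Dixon test for 4 values. About 1 group in 20 passes this limit by chance, and 18 were examined.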

How the results depend on the processing

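The 9 log2 fold changes were recomputed under 17 alternatives each, 153 values in all, of which 146 kept their direction and their side of the threshold. The direction turned for Gnat1 without control replicate 4 (0.0825) and without Ikzf1 replicate 1 (0.0253), and for Cngb1 without control replicate 1 (0.0168) and without Ikzf1 replicate 4 (0.0322), none of them called. With 1 library left out, Gnat1 ranged from -0.2552 to 0.0825 and Cngb1 from -0.2557 to 0.0322. The cause was not tested. Cnga1 lost its call in 1 alternative and Pde6a gained one in 2, all by leaving out 1 library. Gngt1, Pde6b, Pde6g, Sag and Rcvrn were called under all 17, with Gngt1 between 1.87 and 2.06. Under limma on log2(TPM + 1), which understates low genes, Pde6b was at -0.62 and Cnga1 at -0.29. Sag, which is not a low gene, was at -0.31 there and at -0.33 under limma on log2(TPM + 0.1). Over all genes, 7839 (with the length offset) to 9251 (with no filter) were called, against 9202. Replicate numbers are shared between the groups but did not pair the libraries: same-numbered libraries had correlations of deviations from -0.05 to 0.01. No control library correlated best with the Ikzf1 library of its own number, and the best control partner of each Ikzf1 library was not looked up. With the replicate block, 8883 genes were called, and 5 members were lower and 1 higher, as without it. Depth limits Cnga1, with 8 to 27 read pairs in a library.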
